A study of Arabidopsis thaliana with 47 samples.

Results

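Class III peroxidases, the secreted heme peroxidases of plants, were followed through 3 genotypes and 3 doses of the peptide hormone RGF1 in the root meristematic zone of Arabidopsis thaliana. The family was defined by a list of 60 locus codes, and a member was described where its mean count reached 5 reads in at least 1 of the 9 groups. That rule kept 31 of the 60 listed members, out of 36823 loci in the count table. Just inside the limit stood RHS19 (AT5G67400), with a highest group mean of 5.60 reads, and AT5G39580, with 6.33 reads. Just outside it were AT4G33420, with 4.80 reads, and AT5G15180, with 3.17 reads. Between 20 and 24 of the 31 members had enough reads to be tested in any single comparison, so counts of calls cover those members and not the whole list.

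Bulk RNA sequencing was done on 47 samples of dissected meristematic zones, each pooled from 50 root sections. All plants carried the plt2 mutation, a loss of the root transcription factor PLETHORA 2. The groups were plt2/gPLT2C212S-GFP, plt2/gPLT2-GFP and plt2 without a transgene, written below as gPLT2C212S, gPLT2 and plt2. Seedlings were grown for 6 days on MS medium and then kept in diluted MS medium with mock solution, 0.3 nM RGF1 or 5 nM RGF1 for 24 h. There were 5 samples per group and 6 in both transgenic lines at 5 nM. The labels name neither the promoter of the transgenes nor the number of independent lines. They do not say whether samples of a group came from separate cultures, so p-values measure the spread between these samples, which may be technical.

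Class III peroxidases use hydrogen peroxide to oxidise wall phenolics, which links lignin and stiffens the wall, and in another reaction cycle they produce reactive oxygen species that loosen it. In the root, a set of them assembles the lignin of the Casparian strip in the endodermis, while others act in growing root hairs or in xylem. The transcription factor UPBEAT1 (UPB1) represses several peroxidase genes, and through them sets the balance of superoxide and hydrogen peroxide where cells leave the meristem. RGF1 is sensed by receptor kinases in the meristem, changes the distribution of reactive oxygen species there and stabilises the PLT2 protein.

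Total counts ran from 7739807 to 10332541 per library, and 46.3 to 72.4% of them were mitochondrial. Levels are given as CPM, reads scaled to library size with TMM factors, outside 14 loci that had reads in at least 11 libraries but are left out of the deposited FPKM table; this left 2652354 to 5116600 reads per library, of which 3 reads correspond to 0.585 to 1.13 CPM. PLT2 itself stayed at or below 12.0 CPM in every plt2 library and at or above 26.7 CPM in every transgenic library. It was higher in gPLT2C212S than in gPLT2 at each dose, without overlap. Mock values were 51.5 to 77.7 CPM in gPLT2C212S and 36.6 to 43.6 CPM in gPLT2. At 0.3 nM they were 45.0 to 57.2 and 26.7 to 40.1 CPM, and at 5 nM 66.5 to 87.4 and 47.5 to 64.5 CPM. The part of the PLT2 level in differences between these lines was not tested. The mean Spearman correlation of a library with the others of its group was 0.955 to 0.977. Comparisons of 2 doses in a genotype share the same mock libraries, so their values are set side by side and not counted as separate evidence.

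The peroxidases responded to 5 nM RGF1 in all 3 genotypes, and in gPLT2C212S they split into a falling and a rising set. In gPLT2C212S roots, 9 of 22 tested members were higher and 8 were lower than in mock, where 18.7% of all genes tested were higher and 21.5% were lower (edgeR's quasi-likelihood test, Benjamini-Hochberg adjusted p under 0.05). In gPLT2 roots 2 of 22 were higher and 14 were lower, against 23.2% and 24.3% of all genes. In plt2 roots none of 20 was higher and 12 were lower, against 2.82% and 6.62% of all genes. The median log2 fold change over the tested members was -0.08 in gPLT2C212S, -0.70 in gPLT2 and -0.65 in plt2, beside medians of -0.00, 0.03 and 0.02 over all genes. Of the 9 members called higher in gPLT2C212S, 2 (PRX71 and AT5G51890) had at most 3 reads in all mock libraries together and entered the test through the treated libraries alone; PRX71, with 5 mock reads, did so among the 2 called higher in gPLT2. AT5G64100 and AT5G17820 also had few reads in most gPLT2C212S mock libraries, and passed the filter in this line mainly through treated libraries. Among the members called lower, AT4G16270 in gPLT2 and AT5G64100 in plt2 entered the test through mock libraries alone. In bulk samples, fewer cells of a type and less RNA per cell cannot be told apart.

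**Figure D1:**
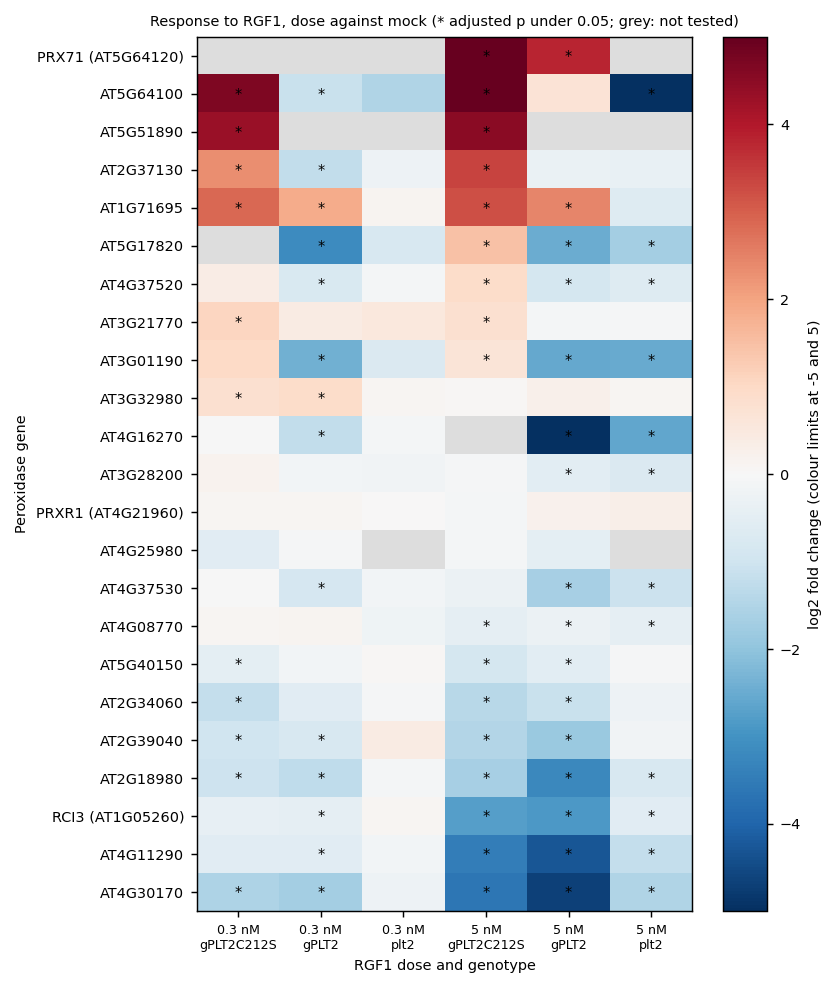
Colours give the log2 fold change (RGF1 dose against mock) of each tested peroxidase gene, in columns for 0.3 nM and then 5 nM, each in gPLT2C212S, gPLT2 and plt2, with an asterisk where the adjusted p was under 0.05 and grey where the gene was not tested. Genes are ordered by their value at 5 nM in gPLT2C212S. The bottom 4 are blue with asterisks in all 3 genotypes at 5 nM, the top 9 are red in gPLT2C212S, and the column for 0.3 nM in plt2 holds no asterisk.

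The members known for Casparian strip lignification were split by their level. RCI3 (AT1G05260) and AT4G11290 were abundant and fell at 5 nM in all 3 genotypes. AT5G66390 (PRX72) and PER64 (AT5G42180) were close to the detection floor and gained reads in gPLT2C212S, whose treated libraries alone brought them past the count rule. AT1G44970, the last of the 5 listed, stayed under the count rule. RCI3, also known from cold and potassium stress, lies at chr1:1529767-1531484 and AT4G11290 at chr4:6869863-6871705 (RefSeq annotation, TAIR10.1), each with 4 coding exons. Their upstream windows are shown because E-box letters (CANNTG, both strands), the letters that basic helix-loop-helix factors such as UPB1 are known to bind, occur in each. The windows cover 250 bases before the annotated start, chr1:1529517-1529766 and chr4:6869613-6869862, both on the plus strand of TAIR10.1, and capitals mark the E-boxes.
AT1G05260: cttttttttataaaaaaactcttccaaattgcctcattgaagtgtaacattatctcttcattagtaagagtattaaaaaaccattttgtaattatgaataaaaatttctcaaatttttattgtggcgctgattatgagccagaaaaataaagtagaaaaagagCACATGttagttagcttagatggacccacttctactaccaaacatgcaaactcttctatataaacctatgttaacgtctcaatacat
AT4G11290: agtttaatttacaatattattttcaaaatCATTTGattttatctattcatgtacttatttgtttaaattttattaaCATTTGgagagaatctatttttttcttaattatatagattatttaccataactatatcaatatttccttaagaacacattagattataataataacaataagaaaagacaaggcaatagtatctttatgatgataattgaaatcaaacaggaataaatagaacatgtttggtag
An E-box was present in the windows of 15 of 28 reported members (53.6%), beside 56.4% of 20983 windows of all protein-coding genes, so these letters do not set the family apart. A match is a description of the sequence, not a site.

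RCI3 (AT1G05260) at 5 nM had a lowest of 17.8, a median of 24.0 and a highest of 29.9 CPM in gPLT2C212S roots, against 196, 169, 170.1, 135 and 117 CPM in mock. In gPLT2 roots it had a lowest of 19.1, a median of 39.7 and a highest of 50.9 CPM at 5 nM, against 308, 283, 227, 285 and 254 CPM in mock. Every treated library of both transgenic lines lay below every mock library of its line (log2 fold change of -2.77 with an SE of 0.15 and an adjusted p of 2.74e-13 in gPLT2C212S; log2 fold change of -2.88 with an SE of 0.17 and an adjusted p of 1.34e-10 in gPLT2). The plt2 roots had 235, 207, 204, 183 and 170.3 CPM at 5 nM, against 302, 264, 379.9, 388 and 194 CPM in mock. Here the libraries overlapped, and the smaller decrease was just past the threshold (log2 fold change of -0.58 with an SE of 0.16 and an adjusted p of 0.0322), a call that was lost without any of 6 of the 10 libraries. The log2 difference of the RCI3 response from that in plt2 was -2.14 in gPLT2C212S and -2.27 in gPLT2 (adjusted p 1.97e-07 and 9.75e-07 in edgeR's interaction test).

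AT4G11290 showed the same order with larger changes, and it is also a known target of UPB1. It had a lowest of 1.80, a median of 2.95 and a highest of 6.25 CPM in gPLT2C212S roots at 5 nM, against 36.7, 40.7, 40.8, 31.2 and 33.6 CPM in mock. In gPLT2 roots the values were a lowest of 2.15, a median of 2.67 and a highest of 6.84 CPM at 5 nM, against 91.1, 61.4, 57.7, 63.4 and 63.7 CPM in mock. No treated library reached a mock library in either line (log2 fold change of -3.44 with an SE of 0.21 and an adjusted p of 2.15e-12 in gPLT2C212S; log2 fold change of -4.29 with an SE of 0.22 and an adjusted p of 1.68e-11 in gPLT2). In plt2 roots, 47.9, 46.5, 50.5, 48.7 and 40.8 CPM at 5 nM stood against 127, 84.4, 129.8, 133 and 78.6 CPM in mock, again without overlap (log2 fold change of -1.21 with an SE of 0.15 and an adjusted p of 9.95e-05). The log2 differences of its response from that in plt2 were -2.18 in gPLT2C212S and -3.06 in gPLT2 (edgeR adjusted p 1.63e-06 and 5.68e-08). The fold changes of the 2 transgenic lines did not differ past the threshold for AT4G11290 (log2 difference 0.85, SE 0.36, adjusted p 0.178).

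AT5G66390 (PRX72) and PER64 (AT5G42180) had too few reads for the test, and their reads are given as sums over libraries. Both reached the count rule through treated gPLT2C212S libraries alone, so their gain over mock in this line was partly set by that rule. In gPLT2C212S, AT5G66390 had 0 reads in mock, 49 reads in 5 libraries at 0.3 nM and 53 reads in 6 libraries at 5 nM. With 3 reads set for the mock group, this is at least 13.5-fold higher at 0.3 nM and at least 16.1-fold higher at 5 nM. PER64 (AT5G42180) had 1 read in gPLT2C212S mock libraries, 33 at 0.3 nM and 19 at 5 nM, ratios to mock of 27.3 (95% counting interval 4.57 to 1109) and 17.3 (95% counting interval 2.75 to 718). In gPLT2 at 5 nM, AT5G66390 had 13 reads against 0 in mock, at least 3.06-fold higher, and PER64 had 14 reads against 4, a ratio of 2.47 (95% counting interval 0.776 to 10.3). In gPLT2C212S at 0.3 nM, replicate 3 held no read of either gene and replicate 5 at most 1, so nearly all of these reads come from the other 3 libraries. In gPLT2C212S the 6 markers of differentiated endodermis (CASP1 to CASP5 and ESB1) moved beside them. Their summed level was 4.46 to 13.3 CPM at 5 nM against 1.99 to 4.55 CPM in mock. Of the 6, 4 were at 0 in every mock library of this line and 0 of 6 in every library at 5 nM. The 1 marker with enough reads for a test, ESB1 (AT2G28670), was called higher in gPLT2C212S. In gPLT2 the sum of the markers was 2.59 to 8.67 CPM at 5 nM and 3.01 to 6.63 CPM in mock, with overlap. The 1 marker tested in gPLT2 was not called. The part of endodermal cells in these reads was not tested.

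**Figure D2:**
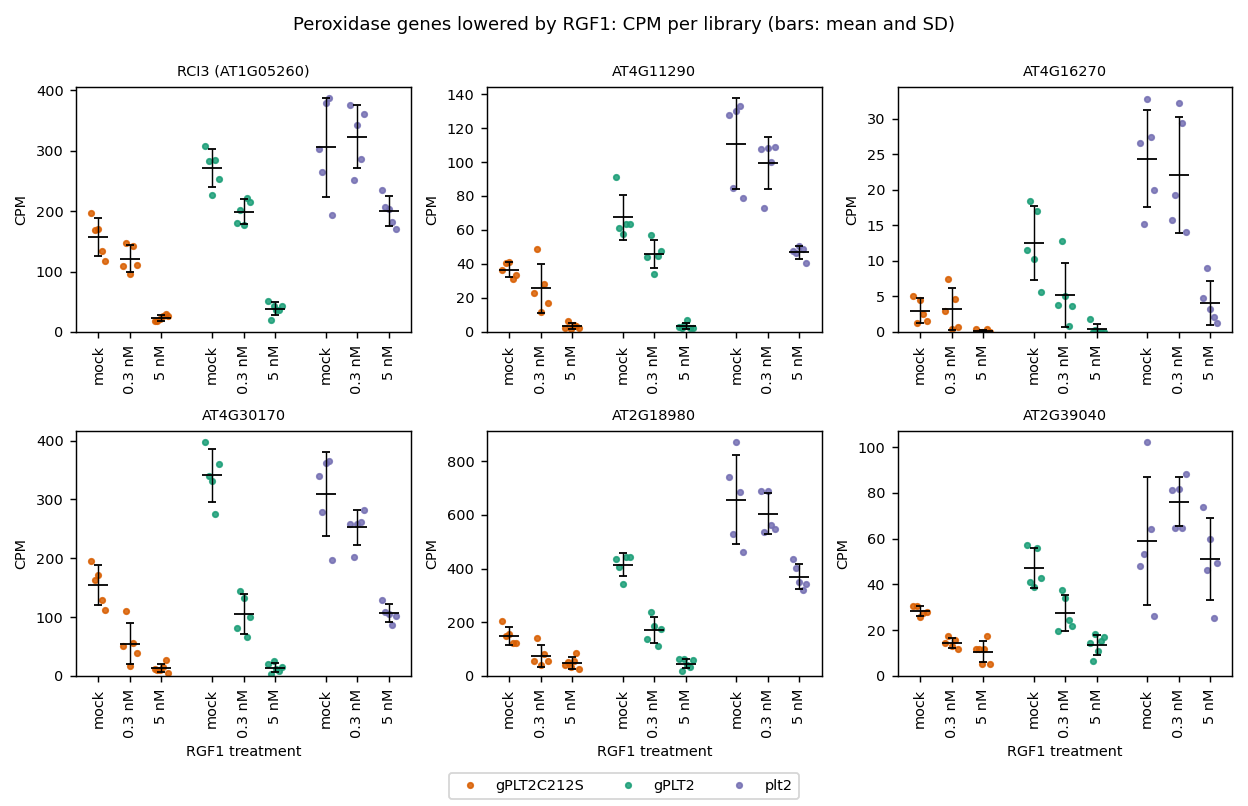
Each point is the CPM of a library for 6 peroxidase genes, by RGF1 treatment (mock, 0.3 nM, 5 nM) within gPLT2C212S, gPLT2 and plt2, with the mean and SD as bars. At 5 nM the points of RCI3, AT4G11290, AT4G30170 and AT2G18980 lie below their mock points in both transgenic lines, and AT4G16270 is at or near 0 there.

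The 3 known UPB1 targets did not move alike. At 5 nM all 3 fell in gPLT2 and in plt2, while in gPLT2C212S AT4G11290 fell, AT5G17820 rose and AT4G16270 had too few reads for a test. AT4G16270 had a lowest of 0, a median of 0 and a highest of 1.81 CPM in gPLT2 roots at 5 nM, against 11.5, 18.4, 10.2, 16.9 and 5.56 CPM in mock (log2 fold change of -5.16 with an SE of 0.56 and an adjusted p of 4.44e-07). In plt2 roots it had 4.79, 9.02, 3.15, 2.15 and 1.19 CPM at 5 nM, against 26.6, 15.2, 32.8, 27.4 and 20.003 CPM in mock (log2 fold change of -2.58 with an SE of 0.35 and an adjusted p of 0.000185). The groups did not overlap in either genotype. In gPLT2, AT4G16270 passed the expression filter through the mock libraries alone. In gPLT2C212S, 2 reads of AT4G16270 in 6 libraries at 5 nM stood against 52 reads in 5 mock libraries, a mock-to-treated ratio of 28.6 (95% counting interval 7.52 to 242).

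AT5G17820 had a lowest of 2.23, a median of 7.49 and a highest of 18.1 CPM in gPLT2C212S roots at 5 nM. In mock it had 7.91, 2.68, 2.24, 0.572 and 1.82 CPM, with overlap between the groups (edgeR log2 fold change of 1.46 with an SE of 0.46 and an adjusted p of 0.0122). DESeq2 did not call this rise, and the gene passed the expression filter in this line mainly through treated libraries. In gPLT2 roots AT5G17820 had a lowest of 0.259, a median of 2.04 and a highest of 9.48 CPM at 5 nM, against 22.4, 16.6, 11.8, 15.1 and 9.35 CPM in mock (log2 fold change of -2.47 with an SE of 0.44 and an adjusted p of 0.000117). A single gPLT2 library, replicate 3, gave the highest treated value and was the only one to reach the mock range. In plt2 roots AT5G17820 averaged 6.63 ± 0.946 CPM at 5 nM and 22.3 ± 11.7 CPM in mock (SD, n = 5 each; log2 fold change of -1.70 with an SE of 0.40 and an adjusted p of 0.0129). The response of AT5G17820 in gPLT2C212S lay 3.93 above that in gPLT2 and 3.21 above that in plt2 on the log2 scale (edgeR adjusted p 0.000759 and 0.00162).

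UPB1 (AT2G47270) itself fell at 5 nM in plt2, to 5.73 ± 1.93 CPM against 14.7 ± 7.23 CPM in mock (log2 fold change of -1.33 with an SE of 0.40 and an adjusted p of 0.0423), beside a fall of all 3 of its listed targets; the call was lost without any of 8 of the 10 libraries. In gPLT2, where the 3 targets also fell, UPB1 averaged 9.48 ± 2.98 CPM at 5 nM and 10.998 ± 1.94 CPM in mock, and its change was not called (log2 fold change of -0.27 with an SE of 0.23 and an adjusted p of 0.35). In gPLT2C212S UPB1 averaged 4.17 ± 1.91 CPM in mock, 11.5 ± 3.59 CPM at 0.3 nM and 7.004 ± 2.43 CPM at 5 nM, and it was called higher at 0.3 nM (log2 fold change of 1.41 with an SE of 0.28 and an adjusted p of 0.00109) and not at 5 nM (log2 fold change of 0.69 with an SE of 0.31 and an adjusted p of 0.0766). Its response in gPLT2C212S exceeded that in plt2 by 1.58 at 0.3 nM and 2.07 at 5 nM (edgeR adjusted p 0.044 and 0.00964), the first lost with the mitochondrial share as covariate, with the replicate block and without any of 16 of the 20 libraries. Of the other listed regulators, AT2G12646 rose at 5 nM in gPLT2C212S and gPLT2, with log2 fold changes of 0.31 and 1.21; the call in gPLT2C212S was lost with total-count scaling, with no expression filter, in the fit over all groups, with the replicate block and without any of 5 of the 11 libraries. RHD6, a root hair regulator, fell in both lines (-0.92 and -0.77), and the changes of MYB36, a regulator of endodermal genes, stayed without a call at 5 nM throughout. At 0.3 nM MYB36 was called higher in gPLT2C212S, a call lost with the mitochondrial share as covariate.

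The most abundant peroxidase transcripts, compared by the deposited FPKM, which account for gene length, were PRXR1 (AT4G21960) with a mean of 403 FPKM over all samples, AT2G18980 with 224, RCI3 (AT1G05260) with 139, AT4G30170 with 116 and Prx37 (AT4G08770) with 86.8. PRXR1 was called in none of the 15 comparisons. At 5 nM it had a lowest of 601, a median of 663 and a highest of 688 CPM in gPLT2C212S roots, against 582, 731, 695, 721 and 671 CPM in mock, and the groups overlapped (log2 fold change of -0.08 with an SE of 0.10 and an adjusted p of 0.569). Its values in plt2 roots were 887, 839.6, 899, 855 and 937 CPM at 5 nM, against 758, 732, 749, 729 and 742 CPM in mock. The plt2 libraries at 5 nM all lay above the mock libraries, yet the difference was small and not called (log2 fold change of 0.28 with an SE of 0.10 and an adjusted p of 0.0924); DESeq2, a fit over all 9 groups and a fit with the mitochondrial share as covariate did call it.

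The pair AT4G30170 and AT2G18980, whose coding sequences are 79.5% identical and closest to each other in the family, fell together in all 3 genotypes at 5 nM. AT4G30170 had a lowest of 5.57, a median of 10.9 and a highest of 26.5 CPM in gPLT2C212S roots, against 195, 164, 172, 129 and 112 CPM in mock. In gPLT2 roots it had a lowest of 3.38, a median of 13.2 and a highest of 25.7 CPM at 5 nM, against 397, 340.3, 332, 275 and 360.1 CPM in mock. All treated libraries lay below the mock libraries in both lines (log2 fold change of -3.62 with an SE of 0.22 and an adjusted p of 2.34e-12 in gPLT2C212S; log2 fold change of -4.65 with an SE of 0.27 and an adjusted p of 1.02e-10 in gPLT2). In plt2 roots AT4G30170 averaged 107 ± 15.3 CPM at 5 nM and 309 ± 71.6 CPM in mock (SD, n = 5 each; log2 fold change of -1.50 with an SE of 0.16 and an adjusted p of 2.05e-05). AT2G18980 averaged 48.3 ± 21.1 CPM (n = 6) at 5 nM and 150.2 ± 33.6 CPM (n = 5) in mock in gPLT2C212S, 46.1 ± 18.4 CPM (n = 6) and 414 ± 43.0 CPM (n = 5) in gPLT2, and 370.0 ± 47.2 CPM and 657 ± 164 CPM (n = 5 each) in plt2. Its log2 fold changes were -1.68, -3.22 and -0.80 in that order of genotypes, and the decrease in gPLT2C212S was smaller than in gPLT2 by 1.54 (edgeR adjusted p 0.00471) beside a mock level that was itself lower in gPLT2C212S (-1.46 against gPLT2).

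Smaller decreases filled the rest of the falling set. Prx37 (AT4G08770) fell in all 3 genotypes, with log2 fold changes of -0.44 in gPLT2C212S, -0.28 in gPLT2 and -0.43 in plt2, and the last 2 calls were lost under several alternatives. AT2G39040, AT2G34060 and AT5G40150 fell in both transgenic lines and were not called in plt2, with log2 fold changes in gPLT2C212S of -1.48, -1.37 and -0.86. For AT2G39040 the responses in gPLT2C212S and gPLT2 differed from that in plt2 by -1.26 and -1.65 (edgeR adjusted p 0.0347 and 0.00695), the first of which DESeq2 did not call. AT3G28200 fell in gPLT2 (-0.53) and plt2 (-0.74), and its change in gPLT2C212S was -0.08 and not called. AT4G37520 and its neighbour AT4G37530 are 92.5% identical in coding sequence, so reads may be split uncertainly between them. Both fell in gPLT2 (-0.88 and -1.67) and plt2 (-0.65 and -1.07), while in gPLT2C212S AT4G37520 rose by 0.91 and AT4G37530 stood at -0.29 without a call.

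Root cap markers were lower beside the falling set at 5 nM in both transgenic lines. The summed level of 4 root cap genes ran over 59.6 to 127 CPM at 5 nM and 203 to 233 CPM in mock in gPLT2C212S, 49.1 to 115 and 178 to 317 CPM in gPLT2, and 131 to 257 and 177 to 436 CPM in plt2. At 0.3 nM the sum was already 70.9 to 114 CPM in gPLT2C212S, and it was 147 to 233 CPM in gPLT2. All 4 root cap genes were called lower at 5 nM in both transgenic lines and 0 of 4 in plt2. Of all genes, 21.5% were called lower in gPLT2C212S, 24.3% in gPLT2 and 6.62% in plt2. Of 5 markers of dividing cells, 4 were called higher at 5 nM in each transgenic line and 1 was called lower in gPLT2C212S. Of all genes, 18.7% were called higher in gPLT2C212S and 23.2% in gPLT2. None of the 5 was called in plt2. In gPLT2C212S the calls of AT3G54180 (lower) and AT4G37490 (higher) were lost with total-count scaling and with the replicate block, that of AT3G54180 also with no expression filter, and without any of 7 and of 3 of the 11 libraries. The part of these cell types in the fall of the peroxidases was not tested. The 5 root hair markers and the 4 markers of green tissue were low throughout, with sums of at most 20.4 and 5.73 CPM in any library. The 1 root hair marker tested at 5 nM in gPLT2C212S, LRX1 (AT1G12040), was called lower there, at 2.28 ± 1.73 CPM against 6.11 ± 1.36 CPM in mock (log2 fold change of -1.50 with an SE of 0.35 and an adjusted p of 0.00146), while the root hair peroxidase AT5G64100 was higher.

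AT5G64100 and AT5G64120 (PRX71) lie 2 protein-coding genes apart on chromosome 5, at chr5:25650567-25652247 and chr5:25659257-25661007, and had the largest rises of the 22 tested members in gPLT2C212S at 5 nM. AT5G64100 is known from root hair growth, and PRX71 from defence and from the stiffening of walls in growth-restricted cells. Their upstream windows are shown because the genes moved together in this line. They are chr5:25652248-25652497 and chr5:25661008-25661257, 250 bases on the minus strand of TAIR10.1, written 5′ to 3′ along the gene, with capitals for TTGAC on either strand, the core letters of the W-box that WRKY factors are known to bind.
AT5G64100: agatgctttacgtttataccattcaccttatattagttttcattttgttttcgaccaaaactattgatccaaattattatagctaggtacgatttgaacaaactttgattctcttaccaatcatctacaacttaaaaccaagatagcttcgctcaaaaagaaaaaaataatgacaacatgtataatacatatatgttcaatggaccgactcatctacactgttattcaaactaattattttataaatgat
AT5G64120: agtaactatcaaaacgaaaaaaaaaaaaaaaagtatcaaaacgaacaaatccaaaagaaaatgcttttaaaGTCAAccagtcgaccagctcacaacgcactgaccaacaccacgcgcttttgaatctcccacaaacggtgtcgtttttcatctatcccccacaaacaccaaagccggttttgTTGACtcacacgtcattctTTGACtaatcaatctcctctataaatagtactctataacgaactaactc
The window of AT5G64120 holds 3 copies of TTGAC, while 3.52% of all windows hold 3 or more, and that of AT5G64100 holds none. Over the family, 11 of 28 reported members (39.3%) had at least 1 copy, beside 45.5% of all windows. Neither window holds an E-box.

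Opposite responses to RGF1 were clearest for AT5G64100. In gPLT2C212S roots at 5 nM it had a lowest of 62.4, a median of 103 and a highest of 179 CPM, against 5.38, 1.49, 2.74, 0 and 0.303 CPM in mock (log2 fold change of 5.70 with an SE of 0.38 and an adjusted p of 1.1e-11). In plt2 roots it had 0.299, 0, 1.58, 0.717 and 0.237 CPM at 5 nM, against 27.0, 22.4, 10.5, 33.0 and 3.06 CPM in mock (log2 fold change of -5.03 with an SE of 0.67 and an adjusted p of 0.00015). The groups were fully apart in both genotypes, upwards in gPLT2C212S and downwards in plt2. In gPLT2C212S, AT5G64100 passed the expression filter mainly through treated libraries, and in plt2 through mock libraries alone. In gPLT2 roots the values were a lowest of 8.74, a median of 24.0 and a highest of 79.9 CPM at 5 nM, against 24.6, 31.7, 10.9, 18.4 and 12.4 CPM in mock, with overlap and no call (log2 fold change of 0.70 with an SE of 0.39 and an adjusted p of 0.147). At 0.3 nM AT5G64100 had 36.7, 136, 11.5, 55.3 and 21.3 CPM in gPLT2C212S roots, all above mock (log2 fold change of 4.67 with an SE of 0.65 and an adjusted p of 2.24e-05), and 5.85, 23.1, 6.89, 2.89 and 6.14 CPM in gPLT2 roots, where 1 library reached the mock values (log2 fold change of -1.11 with an SE of 0.37 and an adjusted p of 0.0409, a call lost with DESeq2 and without any of 7 of the 10 libraries). The response at 5 nM in gPLT2C212S exceeded that in gPLT2 by 5.01 and that in plt2 by 10.77 on the log2 scale (edgeR adjusted p 2.33e-05 and 1.43e-10). Both estimates rest on few reads in most gPLT2C212S mock libraries, and the second also on few reads in plt2 at 5 nM.

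The other root hair members were scarce. AT5G39580, 76.1% identical to PRX71 in coding sequence, had 38 reads in gPLT2C212S at 5 nM against 1 read in mock, a ratio of 34.6 (95% counting interval 5.84 to 1401); reads shared with PRX71 (AT5G64120) cannot be told apart from its own. AT5G39580 reached the count rule through gPLT2C212S at 5 nM alone, so its rise there was partly set by that rule. In gPLT2 it had 20 reads at 5 nM, all in 3 of the 6 libraries, against 1 in mock, a ratio of 14.1 (95% counting interval 2.26 to 585). RHS19 (AT5G67400), which shows root hair expression, had its highest mean in plt2 mock roots and 2 reads at 5 nM against 12 in mock in gPLT2C212S, a mock-to-treated ratio of 6.60 (95% counting interval 1.47 to 60.7). The remaining 3 listed root hair members did not reach the count rule, and of these AT1G05240 has a coding sequence identical to that of AT1G05250.

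PRX71 (AT5G64120) was nearly silent in all mock roots. It had a lowest of 21.7, a median of 30.5 and a highest of 45.7 CPM in gPLT2C212S roots at 5 nM, against 0.316, 0, 0.249, 0 and 0 CPM in mock. These were 620 reads against 2, a ratio of 282 (95% counting interval 77.7 to 2334). In gPLT2 roots it had a lowest of 2.58, a median of 4.42 and a highest of 6.70 CPM at 5 nM, against 0.622, 0, 0.463, 0 and 0.253 CPM in mock, or 110 reads against 5, a ratio of 15.5 (95% counting interval 6.46 to 48.8). Both lines had a call, which the treated libraries alone brought into the test. All treated libraries of both lines lay above mock. In plt2, 7 reads at 5 nM stood against 6 in mock, a ratio of 1.25 (95% counting interval 0.360 to 4.50). At 0.3 nM, 103 reads stood against 2 in gPLT2C212S mock libraries, a ratio of 42.6 (95% counting interval 11.5 to 356), and 18 against 5 in gPLT2, a ratio of 3.34 (95% counting interval 1.20 to 11.5). The responses of gPLT2C212S and gPLT2 to 5 nM did not differ past the threshold for PRX71 (log2 difference 3.96, SE 1.26, edgeR adjusted p 0.0633), an estimate that rests on the few mock reads. Against plt2, the response of gPLT2C212S to 5 nM was called higher. PRX71 entered that test through the treated gPLT2C212S libraries alone.

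Of the other 4 listed members for the apoplastic oxidative burst and defence, PRXCB (AT3G49120), which produces hydrogen peroxide after pathogen elicitors, reached the count rule. It had 3 reads in gPLT2C212S mock libraries, 14 at 0.3 nM and 71 at 5 nM, ratios to mock of 3.86 (95% counting interval 1.08 to 20.9) and 21.5 (95% counting interval 7.07 to 107). All 6 libraries of gPLT2C212S at 5 nM had more CPM of AT3G49120 than any mock library. AT4G36430, in no functional list, behaved likewise in gPLT2C212S, with 49 reads at 5 nM against 2 in mock, a ratio of 22.3 (95% counting interval 5.85 to 189). PRXCB and AT4G36430 reached the count rule through gPLT2C212S at 5 nM alone, so their rise there was partly set by that rule. PRXCB is 90.5% identical to PRXCA in coding sequence, so its reads are uncertain where both are expressed.

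Among the peroxidases of xylem and vascular lignin, AT5G51890, known from differentiating tracheary elements, was absent from nearly all mock libraries and gained reads in both transgenic lines. In gPLT2C212S it had 3 reads in mock, 86 at 0.3 nM and 93 at 5 nM, ratios to mock of 23.7 (95% counting interval 7.84 to 117) and 28.2 (95% counting interval 9.36 to 139). It was called by edgeR at both doses, having passed the expression filter through the treated libraries alone. In gPLT2 it had 1 read in mock, 41 at 0.3 nM and 83 at 5 nM, ratios of 38.1 (95% counting interval 6.46 to 1541) and 58.6 (95% counting interval 10.2 to 2343), and did not reach the expression filter. No plt2 library at 5 nM or in mock held a read of AT5G51890. AT2G22420 stayed between 1.67 and 2.58 CPM in group means and was not testable at either dose, and the other 3 listed members stayed under the count rule.

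Markers of xylem moved beside AT5G51890. Their summed level over 6 genes was 34.8 to 60.6 CPM at 5 nM and 8.87 to 13.6 CPM in mock in gPLT2C212S, 13.1 to 36.7 and 12.1 to 19.2 CPM in gPLT2, and 4.51 to 8.20 and 12.4 to 20.9 CPM in plt2. Of the xylem markers tested, 4 of 4 were called higher in gPLT2C212S and 2 of 4 in gPLT2, beside 18.7% and 23.2% of all genes. In plt2, 2 of 2 were called lower, beside 6.62% of all genes. The calls of AT4G35350 were lost with the replicate block in gPLT2 and in plt2, in plt2 also with no expression filter and in the fit over all groups, and without any of 5 of the 11 libraries in gPLT2 and 7 of the 10 in plt2. The part of xylem cells in the rise of AT5G51890 was not tested.

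AT1G71695 rose at both doses in both transgenic lines. It had a lowest of 26.7, a median of 35.3 and a highest of 48.0 CPM in gPLT2C212S roots at 5 nM, against 2.85, 5.65, 3.74, 3.43 and 3.33 CPM in mock. In gPLT2 roots it had a lowest of 24.2, a median of 26.9 and a highest of 32.9 CPM at 5 nM, against 5.59, 5.64, 3.01, 5.16 and 5.81 CPM in mock. Neither line had an overlap (log2 fold change of 3.22 with an SE of 0.20 and an adjusted p of 4.96e-12 in gPLT2C212S; log2 fold change of 2.44 with an SE of 0.18 and an adjusted p of 1.84e-09 in gPLT2). In plt2 all 5 treated libraries lay below mock, but the difference was not called (log2 fold change of -0.66 with an SE of 0.27 and an adjusted p of 0.134). The responses exceeded that of plt2 by 3.93 in gPLT2C212S and 3.12 in gPLT2 (edgeR adjusted p 6.47e-10 and 3.55e-08). Already at 0.3 nM its level was 28.5 ± 2.49 CPM in gPLT2C212S and 18.3 ± 1.40 CPM in gPLT2 (SD, n = 5 each).

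AT2G37130 rose at both doses in gPLT2C212S and at neither dose in the other genotypes. At 5 nM it had a lowest of 121, a median of 211 and a highest of 337 CPM in gPLT2C212S roots, against 29.1, 22.9, 21.4, 14.6 and 12.7 CPM in mock, a complete separation (log2 fold change of 3.37 with an SE of 0.24 and an adjusted p of 3.22e-11). In gPLT2 roots AT2G37130 averaged 69.8 ± 40.2 CPM at 5 nM (n = 6) and 84.5 ± 15.8 CPM in mock (n = 5), without a call (log2 fold change of -0.32 with an SE of 0.28 and an adjusted p of 0.361). In plt2 roots it averaged 79.3 ± 16.6 CPM and 104 ± 41.7 CPM (n = 5 each), again without a call (log2 fold change of -0.36 with an SE of 0.23 and an adjusted p of 0.342). The response in gPLT2C212S exceeded that in gPLT2 by 3.70 and that in plt2 by 3.78 (edgeR adjusted p 1.37e-06 and 2.91e-08). At 0.3 nM AT2G37130 was higher in gPLT2C212S (2.34) and lower in gPLT2 (-1.22).

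**Figure D3:**
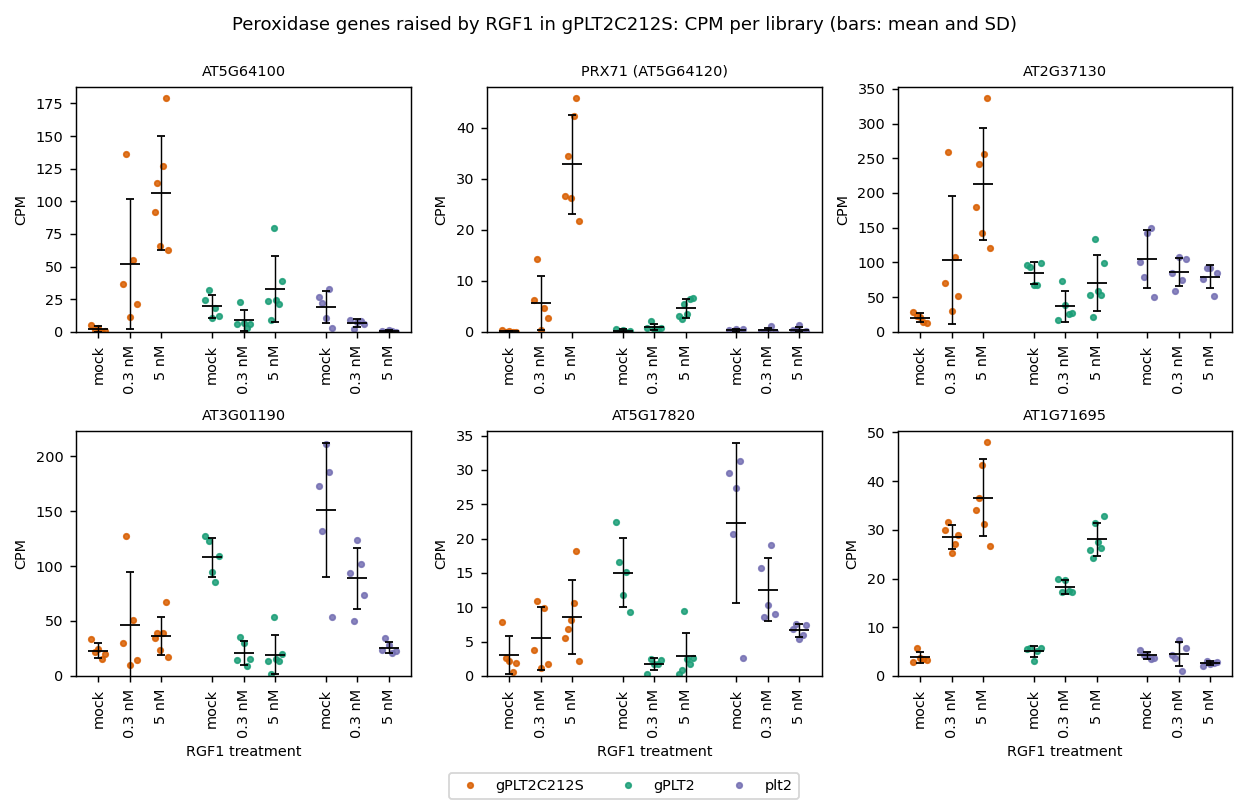
Each point is the CPM of a library for 6 peroxidase genes, by RGF1 treatment (mock, 0.3 nM, 5 nM) within gPLT2C212S, gPLT2 and plt2, with the mean and SD as bars. AT5G64100, PRX71 and AT2G37130 reach their highest values in gPLT2C212S at 5 nM, whereas AT3G01190 and AT5G17820 are highest in plt2 under mock.

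AT3G01190 was lowered in gPLT2 and plt2 and slightly raised in gPLT2C212S. It had a lowest of 17.6, a median of 36.4 and a highest of 66.9 CPM in gPLT2C212S roots at 5 nM, against 33.2, 22.005, 24.2, 15.2 and 19.7 CPM in mock, with overlap (log2 fold change of 0.64 with an SE of 0.24 and an adjusted p of 0.035). This call was lost with DESeq2, with total-count scaling, in the fit over all groups, with the mitochondrial share as covariate and without any of 7 of the 11 libraries. In gPLT2 roots it had a lowest of 1.39, a median of 14.2 and a highest of 53.7 CPM at 5 nM, against 128, 123, 94.3, 85.8 and 109 CPM in mock (log2 fold change of -2.55 with an SE of 0.38 and an adjusted p of 2.02e-05). In plt2 roots it averaged 25.8 ± 5.33 CPM at 5 nM and 151 ± 61.3 CPM in mock (SD, n = 5 each; log2 fold change of -2.52 with an SE of 0.27 and an adjusted p of 2.13e-05). The responses did differ for AT3G01190, by 3.19 between gPLT2C212S and gPLT2 and by 3.21 between gPLT2C212S and plt2 (edgeR adjusted p 0.000214 and 2.02e-06). AT3G21770 rose modestly in gPLT2C212S at 5 nM (0.81) and was -0.09 in gPLT2, without a call.

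At 0.3 nM the transgenic lines responded and plt2 had no called member. In gPLT2C212S roots 6 of 21 members were higher and 5 were lower, beside 11.9% and 11.1% of all genes. In gPLT2 roots 2 of 21 were higher and 12 were lower, beside 6.14% and 9.08%. In plt2 roots 0 of 20 were called in either direction by edgeR, beside 0.0315% higher and 0.0189% lower of all genes; 2 of the 20 had an unadjusted p under 0.05, and DESeq2 called 0. The strongest decreases were those of AT5G17820 (-3.16), AT3G01190 (-2.39) and AT4G30170 (-1.70) in gPLT2, and of AT4G30170 (-1.54), AT2G34060 (-1.18) and AT2G18980 (-1.04) in gPLT2C212S. AT1G71695 (2.87 in gPLT2C212S and 1.86 in gPLT2) and AT3G32980 (0.79 and 0.91) were higher in both lines. AT5G64100 (4.67), AT2G37130 (2.34) and AT3G21770 (1.08) were higher in gPLT2C212S, beside AT5G51890. AT5G51890 entered that test through its treated libraries alone, and AT5G64100 mainly through them. The decreases of AT2G34060 and AT2G18980 in gPLT2C212S were not called with the mitochondrial share as covariate, and PRX71 was below the expression filter at this dose.

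AT3G32980 was called at 0.3 nM and not at 5 nM in both transgenic lines. In gPLT2C212S roots its level was 46.8 ± 6.01 CPM in mock, 82.3 ± 11.6 CPM at 0.3 nM and 49.6 ± 5.47 CPM at 5 nM, and in gPLT2 roots it was 45.7 ± 3.92 CPM, 86.4 ± 9.25 CPM and 55.7 ± 5.66 CPM in the same order (SD, with 5, 5 and 6 libraries in each line). Every 0.3 nM library lay above every mock library in both lines (adjusted p 0.000111 and 1.07e-05), and 5 nM against mock was not called (adjusted p 0.736 and 0.0569). The 2 doses were not tested against each other.

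Under mock, gPLT2C212S roots already had lower peroxidase levels than the other genotypes. Against plt2, 1 of 20 members was higher and 12 were lower, beside 6.83% and 11.8% of all genes. Against gPLT2, 0 of 21 were higher and 13 were lower, beside 2.23% and 6.55%. The medians of the tested members were -0.97 and -0.78 in these comparisons, and 0.00 and 0.01 over all genes. AT5G64100 (-3.25 against plt2 and -3.28 against gPLT2), AT5G17820 (-2.87 and -2.31) and AT3G01190 (-2.71 and -2.24) were among the most reduced, as were AT4G16270 against plt2 (-3.00) and AT2G37130 against gPLT2 (-2.06). All 3 listed UPB1 targets were lower in both comparisons, beside UPB1 itself, at 4.17 ± 1.91 CPM in gPLT2C212S against 10.998 ± 1.94 CPM in gPLT2 and 14.7 ± 7.23 CPM in plt2 (the UPB1 call against plt2 was lost with the mitochondrial share as covariate). AT3G32980 was the member that was higher in gPLT2C212S than in plt2 (0.54), a call lost with total-count scaling and with the mitochondrial share as covariate.

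Fewer members were called between gPLT2 and plt2 roots under mock. Of 20 members, 1 was higher and 3 were lower in gPLT2, beside 1.45% and 1.08% of all genes. AT3G21770 was higher (log2 fold change of 1.00 with an SE of 0.23 and an adjusted p of 0.0285), and AT4G11290 (-0.69), AT2G18980 (-0.64) and AT3G28200 (-0.49) were lower. All 4 calls were lost with the replicate block (0 called), and each was lost in 5 to 8 of the 10 fits without a library.

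The genotypes' responses were compared directly with interaction tests, which share mock libraries with the comparisons above. At 5 nM the response in gPLT2C212S against that in gPLT2 was higher in 7 of 23 members and lower in 0, beside 3.26% and 1.57% of all genes. Against plt2, the response of gPLT2C212S was higher in 8 and lower in 5 of 24, beside 6.41% and 6.00%. Those 8 include PRX71 (AT5G64120), which entered that test through the treated gPLT2C212S libraries alone. The response of gPLT2 against plt2 was higher in 2 and lower in 7 of 23, beside 3.42% and 6.34%. At 0.3 nM the response in gPLT2C212S against gPLT2 was higher in 5 and lower in 0 of 23, beside 1.47% and 0.525%; against plt2 it was higher in 3 and lower in 3 of 23, beside 4.84% and 6.19%. The response of gPLT2 against plt2 at 0.3 nM was higher in 2 and lower in 5 of 22, beside 2.14% and 3.85%. The 7 members with a higher response in gPLT2C212S than in gPLT2 at 5 nM were AT5G64100 (5.01), AT5G17820 (3.93), AT2G37130 (3.70), AT3G01190 (3.19), AT4G37520 (1.79), AT2G18980 (1.54) and AT3G21770 (0.91). The call for AT3G21770 was lost with total-count scaling, without the expression filter, with the replicate block and without any of 6 of the 22 libraries. All but AT3G21770 also started from a lower mock level in gPLT2C212S than in gPLT2.

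**Figure D4:**
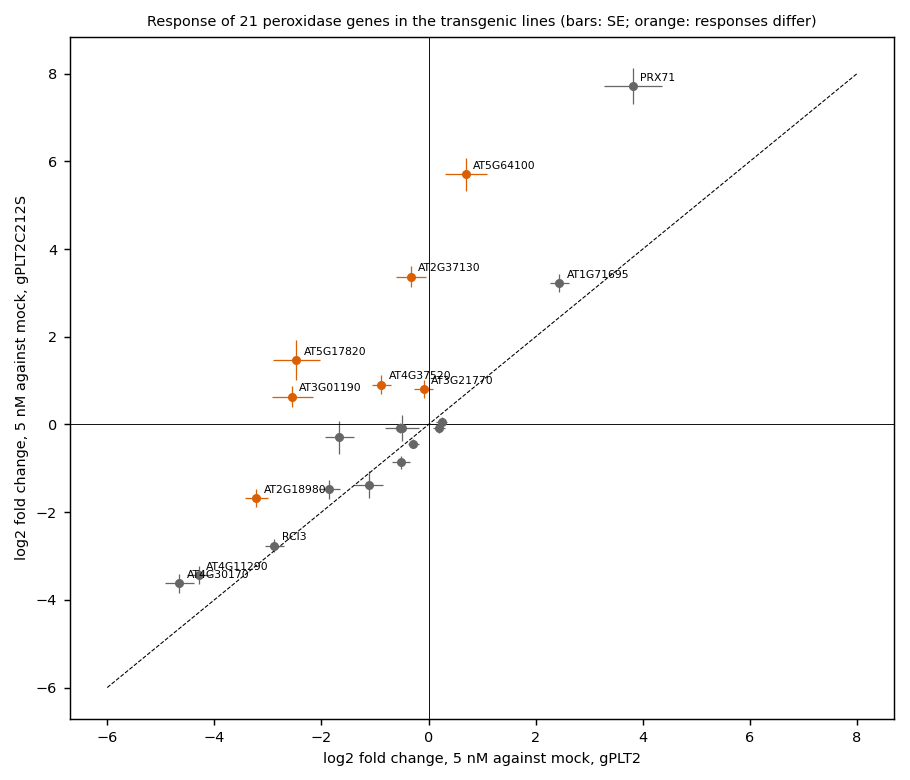
The log2 fold change at 5 nM against mock in gPLT2C212S (vertical) is plotted against that in gPLT2 (horizontal) for 21 peroxidase genes tested in both lines, with SE bars, a dashed line of equal response and orange for the 7 genes whose responses differed in the interaction test. The orange points lie above the dashed line, whereas RCI3 lies on it; PRX71, whose value in gPLT2C212S rests on 2 mock reads, AT4G11290 and AT4G30170 lie above it without a called difference.

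Summed over the 31 members, deposited FPKM were 938 ± 134 at 5 nM (n = 6) and 1066 ± 87.6 in mock (n = 5) in gPLT2C212S. In gPLT2 the sums were 855 ± 89.9 (n = 6) and 1754 ± 112 (n = 5), and in plt2 1411 ± 112 and 2126 ± 412 (SD, n = 5 each). PRXR1 (AT4G21960), whose own level was not called as changed, made up 51.9 ± 6.41% of the sum in gPLT2 at 5 nM against 21.9 ± 3.13% in mock. In plt2 that share was 33.9 ± 2.72% at 5 nM against 19.4 ± 3.93% in mock, and in gPLT2C212S it was 38.3 ± 6.71% against 34.9 ± 4.58%. For the sum, the gPLT2 groups were apart, the plt2 groups overlapped in their extremes and the gPLT2C212S groups overlapped. For the share, the gPLT2 and the plt2 groups were apart and the gPLT2C212S groups overlapped.

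**Figure D5:**
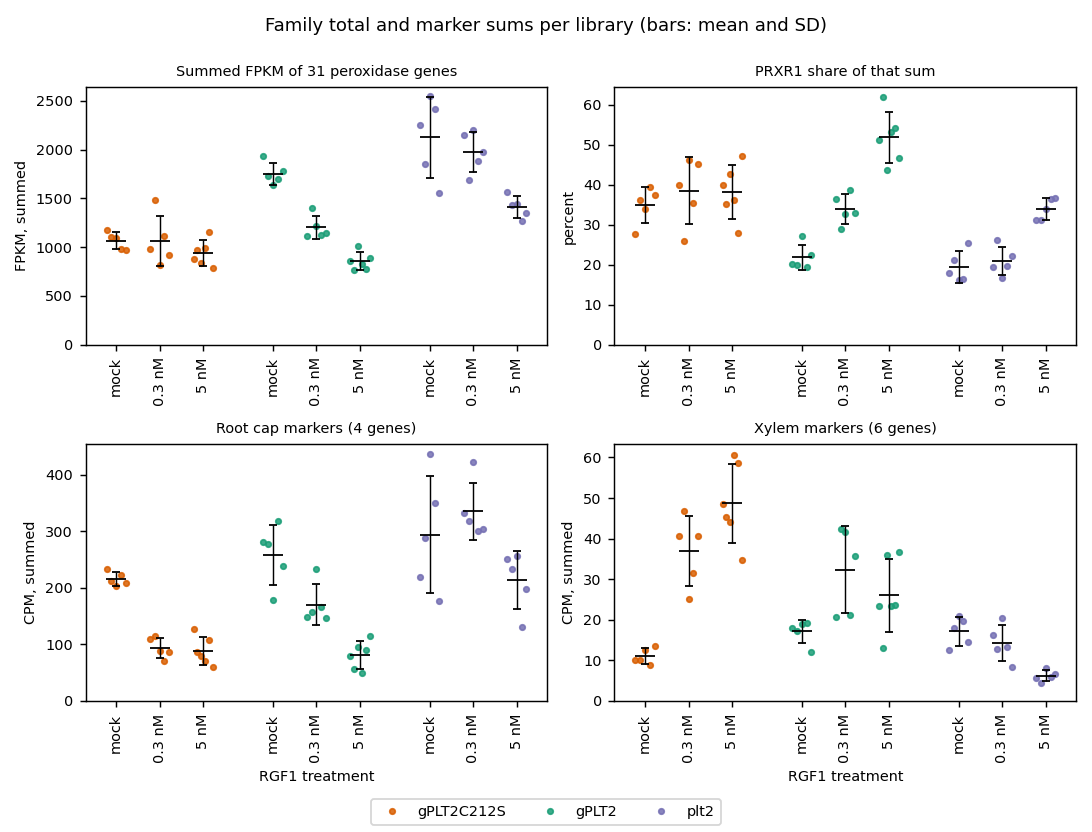
Points are single libraries by RGF1 treatment (mock, 0.3 nM, 5 nM) within gPLT2C212S, gPLT2 and plt2, with the mean and SD as bars, for the summed FPKM of 31 peroxidase genes, the percent of it from PRXR1, and the summed CPM of 4 root cap markers and 6 xylem markers. The mean family sum is lower at 0.3 nM than in mock and lower again at 5 nM in gPLT2 and plt2. The root cap sum is low in both transgenic lines at 5 nM, and in gPLT2C212S it is similarly low at 0.3 nM.

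The NADPH oxidases, which supply the superoxide from which the substrate of the peroxidases is formed, were listed for comparison. Of 10 genes, RHD2 (AT5G51060), the oxidase of root hairs, fell at 5 nM in gPLT2 (log2 fold change of -2.45 with an SE of 0.24 and an adjusted p of 9.63e-08) and in plt2 (log2 fold change of -1.60 with an SE of 0.22 and an adjusted p of 0.000211). In gPLT2C212S it was already low in mock, at 12.2 ± 0.660 CPM against 44.3 ± 4.52 CPM in gPLT2 and 71.3 ± 22.1 CPM in plt2, and its change at 5 nM was not called (log2 fold change of -0.03 with an SE of 0.25 and an adjusted p of 0.937). At 5 nM 3 of 3 tested oxidases were called lower in gPLT2, beside 24.3% of all genes, and 1 of 3 in plt2, beside 6.62%; of 4 tested in gPLT2C212S, none was called. The gPLT2 call of RBOHD (AT5G47910, -0.59) was lost under 6 of 8 alternatives, DESeq2 among them, and without any of 8 of the 11 libraries.

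The members accounted for above leave few over. AT4G25980 was tested in the transgenic lines and called at neither dose, with log2 fold changes at 5 nM of -0.08 in gPLT2C212S and -0.49 in gPLT2. AT5G06730 had too few reads for a test at either dose, with group means between 0.224 and 2.80 CPM. The gene models of AT5G17820, AT4G16270 and AT4G25980 are marked partial in the RefSeq annotation. The other 29 listed members stayed below a mean of 5 reads in every group, and nothing is stated about their response.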

How the data were processed

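Meristematic zones were collected as stated above, with 50 root sections per sample, and 47 RNA libraries were sequenced. The authors deposited a table of raw read counts for 36823 loci and a table of FPKM for 25722 loci; the submitters' processing notes name HISAT2 2.1.0, featureCounts from Subread 2.0.3, DESeq 1.34.0 and the TAIR10 genome. The annotation, the use of strand and the handling of shared reads are not given in the sources used here. The deposited FPKM, scaled by the authors for gene length and depth, served only to compare levels between genes and for family sums.

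Counts were tested with edgeR 4.0.16 in R 4.3.3 (quasi-likelihood F test, TMM, filterByExpr with a minimum count of 10), with the compared groups alone in each fit and Benjamini-Hochberg adjustment over all genes tested. DESeq2 1.42.0, 7 other settings and fits without each library served as alternatives. CPM levels leave out 14 loci, of which 3 are mitochondrial; the tests keep them. Library totals limit the precision of low genes as stated with each value, and counting intervals are exact at 95% and cover counting error only. The code was tested on simulated data with 200 changed genes. Promoter sequences, coordinates and symbols come from RefSeq TAIR10.1.

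The members, functional lists and markers were chosen with earlier results of these data known, so no list counts as independent support. Named members were all of the functional lists, the 3 highest and 3 lowest called fold changes of each comparison, the 3 called members with the smallest adjusted p of each interaction and the 5 with the highest mean FPKM; other members are named to account for each.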

Additional observations from a re-analysis of the deposited data

Results flagged for a closer look

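The check covered 209 sets, each the values of 1 gene in 1 group of 5 or 6 libraries. Of these, 15 held a library whose gap to its nearest neighbour exceeded Dixon's 95% limit for its group size. Chance gives about 1 in 20 for a single set, but the sets share libraries and are not independent. In gPLT2C212S, AT2G22420 was 0.557 CPM in 5 nM replicate 6, AT4G37530 was 13.2 CPM in 5 nM replicate 5 and AT5G17820 was 7.91 CPM in mock replicate 1. In gPLT2 at 5 nM, replicate 3 was highest for AT3G01190 at 53.7 CPM and for AT5G17820 at 9.48 CPM, and replicate 1 was highest for AT2G22420 at 4.65 CPM. Elsewhere in gPLT2, AT5G64100 was 23.1 CPM in 0.3 nM replicate 2, AT1G71695 was 3.01 CPM in mock replicate 3 and AT4G11290 was 91.1 CPM in mock replicate 1. In plt2 at 0.3 nM, AT2G34060 was 17.9 CPM in replicate 3, and AT4G11290 and AT4G37520 were lowest in replicate 2, at 72.9 and 39.9 CPM. In plt2 at 5 nM, AT2G22420 was 0.631 CPM in replicate 3. In plt2 under mock, AT2G34060 was 6.43 CPM in replicate 1 and Prx37 (AT4G08770) was 201 CPM in replicate 4.

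Responses that differed between genotypes were singled out by edgeR's interaction test at an adjusted p under 0.05, and are given here as log2 differences of the response. At 5 nM, gPLT2C212S minus gPLT2 was 5.01 for AT5G64100, 3.93 for AT5G17820, 3.70 for AT2G37130, 3.19 for AT3G01190, 1.79 for AT4G37520, 1.54 for AT2G18980 and 0.91 for AT3G21770. Against plt2 at 5 nM, gPLT2C212S differed by 10.77 for AT5G64100, 3.93 for AT1G71695 and 3.78 for AT2G37130. The value for AT5G64100 rests on few reads in gPLT2C212S mock and in plt2 at 5 nM. At that dose gPLT2 minus plt2 was 3.12 for AT1G71695, -3.06 for AT4G11290 and -3.13 for AT4G30170. At 0.3 nM, gPLT2C212S minus gPLT2 was 5.78 for AT5G64100, 3.96 for AT5G17820, 3.55 for AT2G37130, 3.36 for AT3G01190 and 1.01 for AT1G71695, the last lost under 5 of the alternatives. Against plt2 at 0.3 nM, gPLT2C212S differed by 6.15 for AT5G64100, 2.74 for AT1G71695 and 2.56 for AT2G37130, and gPLT2 differed by 1.75 for AT1G71695, -1.19 for AT2G18980 and -1.44 for AT4G30170.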

How the results depend on the processing

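Of 147 single results for named peroxidases, 108 kept their call under every setting tried, and none changed sign. Calls were lost in 69 of the fits with another setting, against 1106 that kept them, and in 179 of the fits without a library, against 1830. Numbers of called members changed by over 1.5 times as follows. For 0.3 nM in plt2 (0 called), total-count scaling gave 1 (AT5G64100), no expression filter gave 3 (AT3G01190, AT5G17820 and AT5G64100), and leaving out a library gave 0 to 3, with 3 without mock replicate 5. For 0.3 nM in gPLT2C212S (11), no expression filter gave 17. For gPLT2 against plt2 under mock (4), no expression filter gave 8, the replicate block gave 0 and leaving out a library gave 0 to 8. For that comparison the count was 8 without plt2 mock replicate 5, 2 without plt2 mock replicate 3 or gPLT2 mock replicate 1, 1 without plt2 mock replicate 1 or gPLT2 mock replicate 4, and 0 without plt2 mock replicate 4 or gPLT2 mock replicate 2, 3 or 5. For the 0.3 nM interaction of gPLT2 with plt2 (7), the mitochondrial share as covariate gave 4, and leaving out a library gave 4 to 8, with 4 without replicate 1 of plt2 at 0.3 nM, of gPLT2 under mock or of gPLT2 at 0.3 nM. For the 0.3 nM interaction of gPLT2C212S with plt2 (6), total-count scaling and no expression filter each gave 13. The cause was not tested.

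Total-count scaling left the medians over all genes between -0.29 and 0.52 on the log2 scale across the 15 comparisons and changed the split of higher and lower calls to 8 and 4 in gPLT2C212S at 0.3 nM (6 and 5 with TMM), 0 and 4 for gPLT2 against plt2 under mock (1 and 3), 2 and 3 for the 0.3 nM interaction of gPLT2 with plt2 (2 and 5) and 10 and 3 for that of gPLT2C212S with plt2 (3 and 3). With the mitochondrial share as covariate the splits were 8 and 2 for gPLT2C212S at 0.3 nM and 6 and 0 for its interaction with plt2. The replicate numbers did not pair the samples: in 0 of 36 pairs of groups were all same-numbered correlations over 0.1 (median -0.00629). Apart from gPLT2 against plt2 under mock, the block moved no count by over 1.5 times. Members under about 3 reads per library cannot be ranked at this depth.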
